A study of Mus musculus with 9 samples.

Results

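The collagen chain genes of the mouse ventricle are described here, 1 gene for each polypeptide chain of the collagen triple helices. Every gene symbol of the deposited expression table built from "Col", a number, "a" and a number was taken, which gave 44 of 24391 symbols. They comprise 11 fibrillar chains, 6 basement membrane chains of type IV, 6 beaded filament chains of type VI, 9 FACIT chains (fibril-associated collagens with interrupted helices), 3 short-chain network chains, 2 multiplexins, 1 anchoring fibril chain, 4 transmembrane chains and 2 others. RNA-seq of ventricles from C57BL/6 mice was compared in 3 groups of 3 libraries. The P6 libraries came from wild-type hearts at postnatal day 6 and carried no Cre by their labels. The adult control libraries came from mice aged 15 weeks that were positive for the alphaMHC Cre recombinase and wild type for beta-catenin. The stabilized beta-catenin libraries came from mice of 15 weeks with the same Cre and a deletion of exon 3 of beta-catenin, which leaves a protein that escapes degradation. The alphaMHC promoter drives Cre in cardiomyocytes, so the deletion was directed at these cells and not at the stromal cells of the heart. Both sets of adult libraries are labelled as a re-analysis, and the P6 libraries are not.

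Collagens are built from 3 chains wound into a triple helix. Fibrillar chains are secreted as procollagens mainly by fibroblasts and, after their end pieces are cut off, assemble into the cross-linked fibers that give the ventricle its tensile strength. Type IV chains form the sheet-like network of the basement membrane that surrounds cardiomyocytes and capillaries, type VI chains form filaments beside it, and FACITs coat fibrils. The heart lays down much of this matrix shortly after birth, while cardiomyocytes leave the cell cycle.

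The P6 libraries held 7467551 to 7913057 reads assigned to genes, the adult control libraries 15234366 to 21568022 and the stabilized beta-catenin libraries 14965316 to 23236129, and the values below are counts that the authors divided by 1 size factor per library. Every one of 12 cardiomyocyte markers had reads in each group, Myh6 with 281094 to 545096 normalized counts in the 9 libraries. Beta-catenin itself, Ctnnb1, ranged from 8333 to 9053 normalized counts at P6, from 7543 to 8369 in adult control and from 7626 to 8391 with stabilized beta-catenin. These values count the whole gene and do not show whether exon 3 was deleted. Some libraries stood apart in the genes described below. P6 library 2 was highest for cartilage-type chains, and adult control library 1 was highest of its group for Col3a1 and lowest for Col1a1. Stabilized beta-catenin library 2 was highest of its group for Col12a1 and Col8a2. P6 library 2 and stabilized beta-catenin library 2 were also highest of their groups for the sum of all chains. The labels do not say whether the libraries of a group came from separate animals, so p-values measure the spread between these libraries. Age, the Cre, the source of the libraries and sequencing depth differ together between P6 and the adults and cannot be told apart. In ventricular RNA, fewer cells of a type and less RNA per cell cannot be told apart either.

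Collagen chains took up a larger share of the young ventricle's RNA. They held 1.318% ± 0.158 of assigned reads at P6 (SD, n = 3), 0.193% ± 0.0132 in adult control and 0.177% ± 0.0467 with stabilized beta-catenin. The lowest P6 library, at 1.18%, lay above the highest adult library, at 0.220%. Fibrillar chains made up 44.2% ± 2.15 of the collagen normalized counts at P6, 26.6% ± 4.99 in adult control and 26.8% ± 1.81 with stabilized beta-catenin. Type IV chains made up 39.6% ± 1.77 at P6 and 49.5% ± 3.16 and 49.1% ± 0.924 in the adults. The short-chain network share was 0.137% ± 0.0313 at P6, 2.33% ± 0.926 in adult control and 4.28% ± 0.605 with stabilized beta-catenin. These sums weigh long and abundant transcripts most and were not tested.

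**Figure D1:**
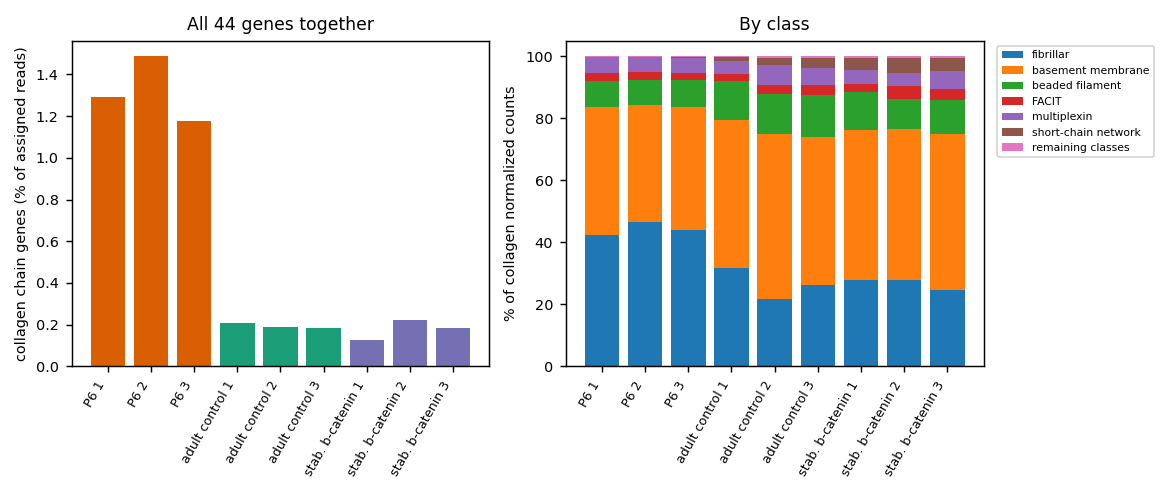
Left, percent of assigned reads in the 44 collagen chain genes in each library. Right, percent of the collagen normalized counts in each class per library; the P6 bars hold 42.3 to 46.5% fibrillar chains and every adult bar holds 31.7% or less.

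Per kilobase of exon, the chains ranked as follows in each group. At P6 Col3a1 led with a mean of 5296 normalized counts per kilobase, followed by Col4a1 with 5043, Col4a2 with 3341, Col1a1 with 2287 and Col1a2 with 1938. In adult control Col4a1 led with 1176, followed by Col4a2 with 790.1, Col3a1 with 598, Col1a2 with 331 and Col6a1 with 291, and Col1a1 was in place 9 with 137. With stabilized beta-catenin the first 5 were the same chains in the same order, and Col8a1 took place 6 with 209. Per kilobase, the libraries of neighbours in this order overlapped for Col3a1 and Col4a1 and for Col1a1 and Col1a2 at P6, and for Col4a2, Col3a1, Col1a2 and Col6a1 in turn in adult control. In adult control Col4a1 lay above Col4a2 in all libraries.

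The first comparison, P6 with adult control, asks how the postnatal ventricle differs from the mature one. By limma at an adjusted p under 0.05, 29 of the 36 chains tested were higher at P6 and 2 were lower, while 31.2% of all 13398 genes tested were higher and 31.3% lower, 62.5% in either direction. The median log2 fold change was 1.98 over the tested chains and 0.02 over all genes. A chain was tested when it reached 10 normalized counts in at least 3 of the 6 libraries. Col7a1, Col9a2, Col11a1, Col24a1 and Col26a1 met this only through P6 and Col22a1 only through adult control, so their direction follows from the filter. Of the 30 chains that met it in both groups, 24 were higher, 1 was lower and 5 were not called.

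**Figure D2:**
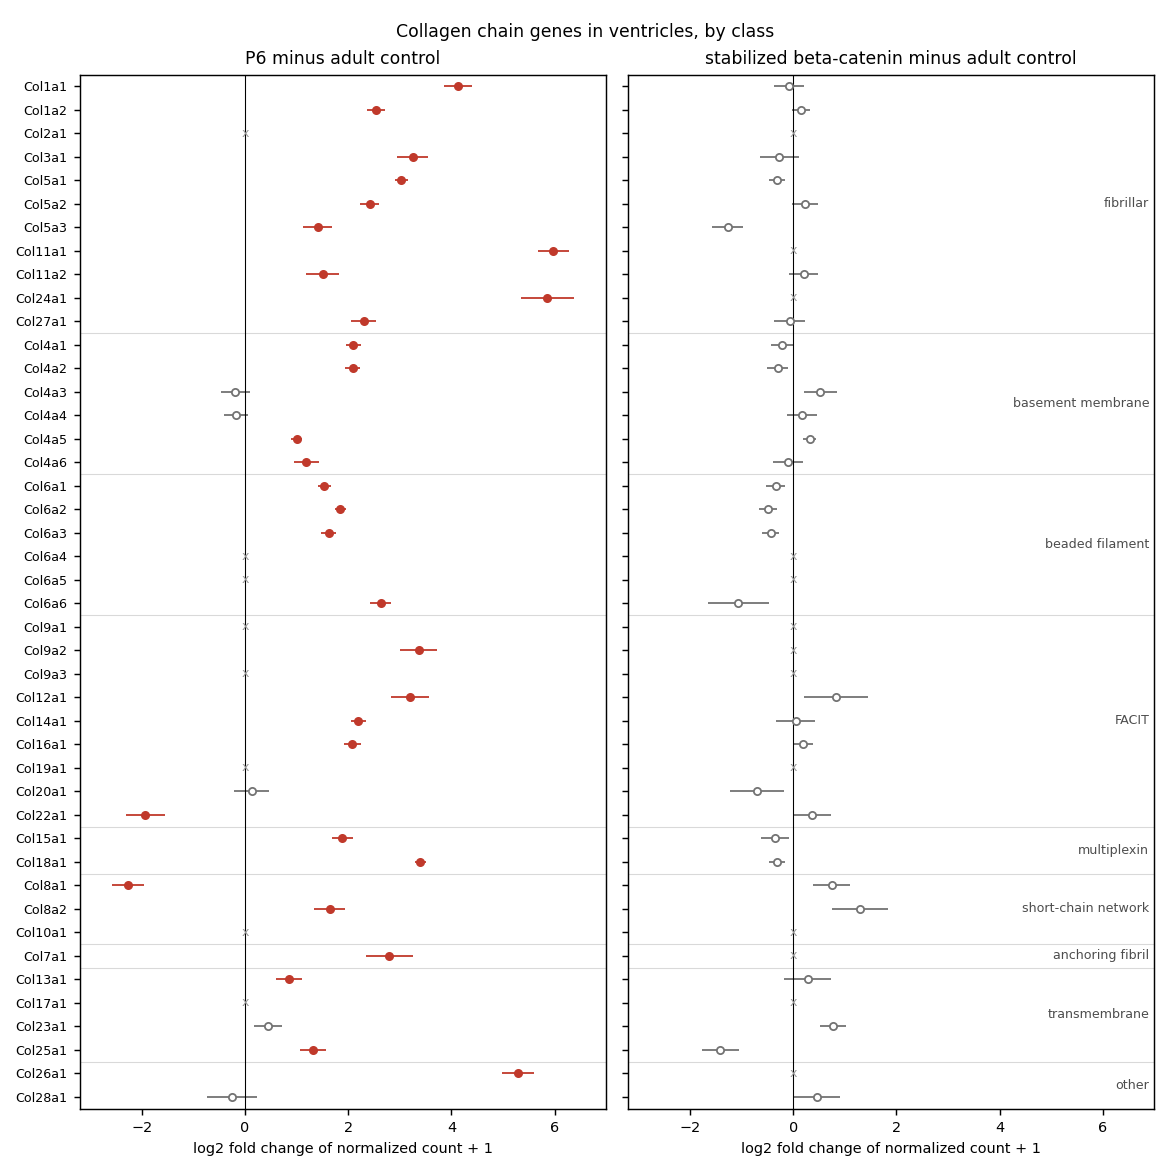
Log2 fold change of normalized count + 1 for each collagen chain gene, by class, with its standard error; filled points passed the adjusted p of 0.05, open points did not, and a cross at 0 marks a chain not tested. At P6 against adult control 29 chains lie to the right and are filled; with stabilized beta-catenin against adult control none is filled.

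Every one of the 10 fibrillar chains tested was higher at P6, beside 31.2% of all genes tested. Among these chains, Col11a1 and Col24a1 met the filter only through P6, so their direction follows from the filter. Col1a1 encodes the alpha1 chain of type I collagen, the main fiber of heart and tendon. It measured 12184, 16293 and 12215 normalized counts at P6, 481, 962 and 990.1 in adult control and 563, 901 and 758 with stabilized beta-catenin. All P6 libraries were far above all adult ones, and the adult groups overlapped. The log2 fold change at P6 was 4.12 (SE 0.27, adjusted p = 5.3e-06). Col1a2, the partner chain of type I, measured 9109, 12716 and 9269 at P6, 1529.8, 1748 and 2026 in adult control and 1601, 2379.8 and 1953 with stabilized beta-catenin. This was a log2 fold change of 2.54 (SE 0.17, adjusted p = 6.03e-06). Its P6 libraries too lay above all adult ones, and the adult groups overlapped.

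Type I collagen is assembled mostly from 2 alpha1 chains and 1 alpha2 chain, and the ratio of the transcripts is given for each library. Col1a1 to Col1a2 was 1.34, 1.28 and 1.32 in the P6 libraries, 0.314, 0.551 and 0.489 in adult control and 0.352, 0.379 and 0.388 with stabilized beta-catenin. The P6 ratios lay above 1 and all adult ratios below it. With 3 libraries against 3 an exact permutation test cannot go below 0.1, which was the two-sided p of P6 against adult control (0.25 adjusted over the 30 tests of 10 ratios). The chain pairs were chosen after their values were seen.

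Col3a1 encodes the homotrimeric type III collagen of compliant tissues. It measured 27561, 33588 and 27257 at P6, 5148, 2001 and 2841 in adult control and 1932, 4064 and 2117 with stabilized beta-catenin. The P6 libraries stood above all others, and the adult control libraries spread more widely than those of Col1a2. At P6 the log2 fold change was 3.25 (SE 0.30, adjusted p = 3.13e-05). Col3a1 to Col1a1 was 2.06 to 2.26 at P6, 2.08 to 10.7 in adult control and 2.79 to 4.51 with stabilized beta-catenin, so P6 overlapped adult control.

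The sequences before the starts of Col1a2 and Col3a1, which moved together, and of Col8a1, which moved against them, are shown so that their base composition can be compared (RefSeq, GRCm38.p6, 250 bases before the start, 5′ to 3′ on the gene's strand). Capitals mark the CCAAT box (the letters CCAAT), the GC box (the letters GGGCGG) and the TATA box (the letters TATAAA), each on either strand. Col1a2 lies at chr6:4505368-4505617 on the plus strand, Col3a1 at chr1:45311288-45311537 on the plus strand and Col8a1 at chr16:57754738-57754987 on the minus strand.
Col1a2: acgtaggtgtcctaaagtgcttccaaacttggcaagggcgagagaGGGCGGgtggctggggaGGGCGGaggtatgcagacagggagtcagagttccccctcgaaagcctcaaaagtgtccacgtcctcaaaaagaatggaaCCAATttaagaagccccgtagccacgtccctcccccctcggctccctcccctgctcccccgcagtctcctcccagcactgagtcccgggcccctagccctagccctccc
Col3a1: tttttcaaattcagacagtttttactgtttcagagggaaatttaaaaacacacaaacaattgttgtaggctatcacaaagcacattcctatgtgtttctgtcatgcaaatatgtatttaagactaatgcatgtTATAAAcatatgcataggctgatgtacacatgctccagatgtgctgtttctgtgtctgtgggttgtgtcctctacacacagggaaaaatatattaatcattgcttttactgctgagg
Col8a1: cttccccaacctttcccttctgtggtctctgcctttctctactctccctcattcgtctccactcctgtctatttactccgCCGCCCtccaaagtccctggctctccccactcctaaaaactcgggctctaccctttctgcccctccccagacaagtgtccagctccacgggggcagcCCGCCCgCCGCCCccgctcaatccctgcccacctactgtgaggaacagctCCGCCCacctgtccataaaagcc
The Col1a2 stretch held GGGCGG and CCAAT, the Col3a1 stretch held TATAAA and neither of the others, and the Col8a1 stretch held CCGCCC 4 times. RefSeq windows of 300 bases, 250 before and 50 after the start, were matched for 35 of the 44 genes, some with more than 1 start (38 windows). G and C made up 61% of the Col1a2 window, 37.7% of the Col3a1 window and 60.3% of the Col8a1 window. The median was 59.8% over the 38 windows and 52.7% over all windows. GGGCGG on either strand was in 23 of the 38 and in 35.7% of all 32851 windows, CCAAT in 13 and in 37.4%, and TATAAA in 5 and in 13.6%. CTTTGAT, the core that TCF factors bind in Wnt signaling, was in 1 window (Col9a2) and in 3.73% of all. A match is a description of these letters.

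Type V chains form heterotrimers that start type I fibrils and limit their width. Col5a1 measured 6323, 7286 and 6160.4 at P6, 715, 827 and 873 in adult control and 553, 761 and 637 with stabilized beta-catenin, a log2 fold change of 3.03 at P6 (SE 0.13, adjusted p = 1.13e-06). Col5a2 measured 2911, 3557 and 2868 at P6, 728, 449.9 and 592 in adult control and 519, 971 and 617 with stabilized beta-catenin, a log2 fold change of 2.42 (SE 0.18, adjusted p = 1.07e-05). For both, every P6 library lay above every adult one. Col5a3 differed from them: it measured 528, 532 and 431 at P6, 304, 162 and 130.3 in adult control and 68.2, 83.9 and 77.6 with stabilized beta-catenin. The 3 groups did not overlap, and its log2 fold change at P6 was 1.41 (SE 0.28, adjusted p = 0.00223).

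The cartilage-type and minor fibrillar chains were scarcer. Col11a1, a chain of cartilage fibrils also made in the embryonic heart, measured 95.9, 145 and 111 normalized counts at P6 and at most 3.01 in any adult library. Over the groups 245 reads stood against 3 in adult control, a ratio per size factor of 139 (95% counting interval 47.2 to 681). Col2a1, the main chain of cartilage, had 16 reads at P6 and 0 in adult control, at least 9.11-fold higher when 3 reads are set for the empty group, and measured 0, 17.3 and 5.94 at P6. Col24a1, a minor fibrillar chain, measured 111 to 127 at P6 and 0 to 3.60 in adult control. Col11a2, which pairs with Col11a1, measured 40.1 to 95.4 at P6 and 18.0 to 24.2 in adult control, and Col27a1, another minor fibrillar chain, was higher by 2.30 on the log2 scale.

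The P6 library with the most Col2a1 was also highest for other cartilage matrix genes. Col9a1, a FACIT of cartilage, measured 1.37, 37.6 and 2.97 at P6, and the matrix genes Matn4 and Hapln1 measured 11.0, 54.9 and 13.4 and 8.22, 46.2 and 20.8. The 12 cartilage markers in the table summed to 1066 to 1325 normalized counts at P6 and 692 to 913 in adult control. Sox6, which was not called, held 619 to 694 of this sum at P6 and 523 to 651 in adult control, and was lowest of its group in P6 library 2. Of the 7 markers tested, 3 were higher at P6 and 1 lower beside 31.2% and 31.3% of all genes. At P6, 2 markers were at 0 in all libraries. Acan, the main cartilage proteoglycan, had a log2 fold change of 5.62. Acan and Matn4 met the filter only through P6, so their direction follows from the filter. The part of the cartilage markers in the values of Col2a1 and Col9a1 was not tested.

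Of the 6 type IV basement membrane chains, Col4a1, Col4a2, Col4a5 and Col4a6 were higher at P6 and Col4a3 and Col4a4 were not called. Col4a1 and Col4a2 together form the network of nearly all basement membranes. Col4a1 measured 33764, 35348 and 30961 at P6, 7924, 8220.4 and 7186 in adult control and 4812, 9046 and 6924 with stabilized beta-catenin (log2 fold change 2.10 at P6, SE 0.14, adjusted p = 6.38e-06). Col4a2 measured 21906, 22807 and 19929 at P6, 4422, 5784 and 5082 in adult control and 3137, 5284 and 4175 with stabilized beta-catenin (2.09, SE 0.15, adjusted p = 7.93e-06). The adult groups overlapped in both. Col4a1 to Col4a2 was 1.54 to 1.55 at P6, 1.41 to 1.79 in adult control and 1.53 to 1.71 with stabilized beta-catenin, so this ratio overlapped across all groups.

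The Col4a1 and Col4a2 genes lie head to head, with RefSeq starts 21 bases apart on opposite strands of chromosome 8.

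Col4a5, used in the basement membranes of muscle, kidney and other tissues, measured 1759.8, 2042 and 1986 at P6, 961, 937 and 986 in adult control and 1086, 1326 and 1192 with stabilized beta-catenin (log2 fold change 1.00 at P6, SE 0.11, adjusted p = 9.11e-05). Its partner Col4a6 measured 89.1, 103 and 72.8 at P6, 27.5, 46.5 and 41.8 in adult control and 26.1, 42.8 and 38.5 with stabilized beta-catenin (1.19, SE 0.25, adjusted p = 0.00287). Both were higher at P6 without overlap. Col4a3, which with Col4a4 and Col4a5 builds the network of the kidney filter, measured 87.7, 96.8 and 65.3 at P6, 63.3, 99.1 and 132 in adult control and 96.2, 186 and 139 with stabilized beta-catenin. Its log2 fold change at P6 was -0.19 (95% interval -0.82 to 0.44, adjusted p = 0.576). Col4a4 measured 147, 173 and 114 at P6, 117, 201 and 177 in adult control and 122, 213 and 228 with stabilized beta-catenin (-0.17, interval -0.71 to 0.36, adjusted p = 0.543). The groups overlapped for both, and the intervals end below the changes of Col4a1 and Col4a2. Scaled to total reads, both changes became positive.

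**Figure D3:**
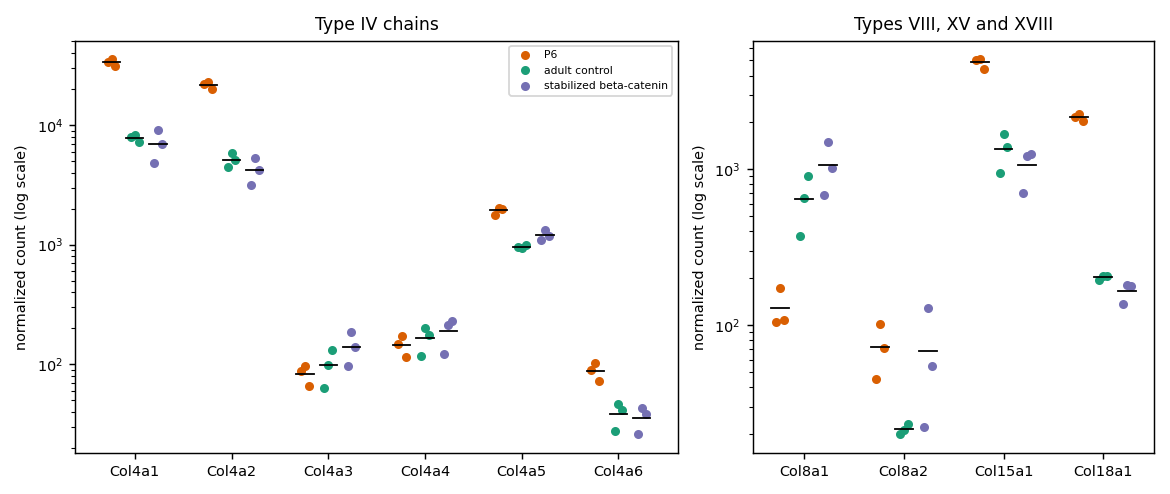
Normalized count (log scale) per library of the 6 type IV chains (left) and of Col8a1, Col8a2, Col15a1 and Col18a1 (right); points are libraries and bars arithmetic means of 3. Col8a1 is lower at P6 than in the adults, with 104 to 172 against 372 to 1498.

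Type VI chains build the beaded filaments next to basement membranes. Col6a1 measured 3402, 3635 and 3294 at P6, 1327, 1063 and 1187 in adult control and 761, 1157 and 931 with stabilized beta-catenin. Col6a2 measured 3892, 4032 and 3798 at P6, 986, 1132 and 1139 in adult control and 614, 934 and 793 with stabilized beta-catenin. Col6a3 measured 3488, 4375 and 3956 at P6, 1113, 1314 and 1416 in adult control and 786, 1128 and 939 with stabilized beta-catenin. All P6 libraries were above all adult ones for the 3 core chains. Their log2 fold changes at P6 were 1.53 for Col6a1 (SE 0.12, adjusted p = 1.48e-05), 1.85 for Col6a2 (SE 0.11, adjusted p = 3.97e-06) and 1.62 for Col6a3 (SE 0.14, adjusted p = 2.12e-05). Col6a6, a chain that can replace alpha3, had a log2 fold change of 2.63 (SE 0.20, adjusted p = 1.12e-05).

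Among the FACITs, Col12a1, Col14a1, Col16a1 and Col9a2 were higher at P6 and Col22a1 was lower. For Col9a2, tested only through P6, and Col22a1, tested only through adult control, the direction follows from the filter. Col12a1, which coats type I fibrils under load, measured 395, 724 and 401 at P6, 29.2, 68.7 and 69.8 in adult control and 41.1, 249 and 77.6 with stabilized beta-catenin (log2 fold change 3.20 at P6, SE 0.36, adjusted p = 9.47e-05). Col14a1, another fibril-coating chain, measured 2499, 2824 and 2318 at P6, 474, 536 and 666 in adult control and 299.7, 948 and 654 with stabilized beta-catenin (2.20, SE 0.15, adjusted p = 6.76e-06). For both, the P6 libraries lay above the adult ones, and stabilized beta-catenin library 2 was the highest adult library for each. Col16a1 had a log2 fold change of 2.08. Of the cartilage FACIT type IX, Col9a2 measured 27.4, 43.4 and 35.6 at P6 and 1.67 to 3.03 in adult control, and Col9a3 measured 13.7, 21.7 and 8.91 and 1.01 to 2.88, below the level tested.

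Col22a1, a FACIT of tissue junctions such as those of muscle with tendon, measured 4.11, 4.34 and 4.46 at P6, 12.5, 22.2 and 25.2 in adult control and 29.1, 31.7 and 17.2 with stabilized beta-catenin. Every P6 library was below every adult one. Its log2 fold change at P6 was -1.93 (SE 0.38, adjusted p = 0.00199), and without any 1 of the adult control libraries it missed the filter. Col22a1 met the filter only through adult control, so its direction and its lack of overlap with that group follow from the filter.

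Col8a1 went the other way from most chains. It encodes a short-chain network collagen of vessel walls and of the eye. It measured 104, 172 and 108 at P6, 372, 658 and 902 in adult control and 686, 1498 and 1014 with stabilized beta-catenin. All P6 libraries were below all adult libraries, and the adult groups overlapped. Its log2 fold change at P6 was -2.27 (SE 0.32, adjusted p = 0.000322). Its partner Col8a2 measured 45.2, 101 and 71.3 at P6, 20.0, 21.2 and 23.0 in adult control and 22.1, 129 and 54.5 with stabilized beta-catenin, a log2 fold change of 1.64 at P6 (SE 0.30, adjusted p = 0.00137). Col8a1 to Col8a2 was thus 1.52 to 2.30 at P6, 18.6 to 39.2 in adult control and 11.6 to 31.1 with stabilized beta-catenin, apart at P6 with the smallest possible p of 0.1 by the exact permutation test (adjusted 0.25).

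**Figure D4:**
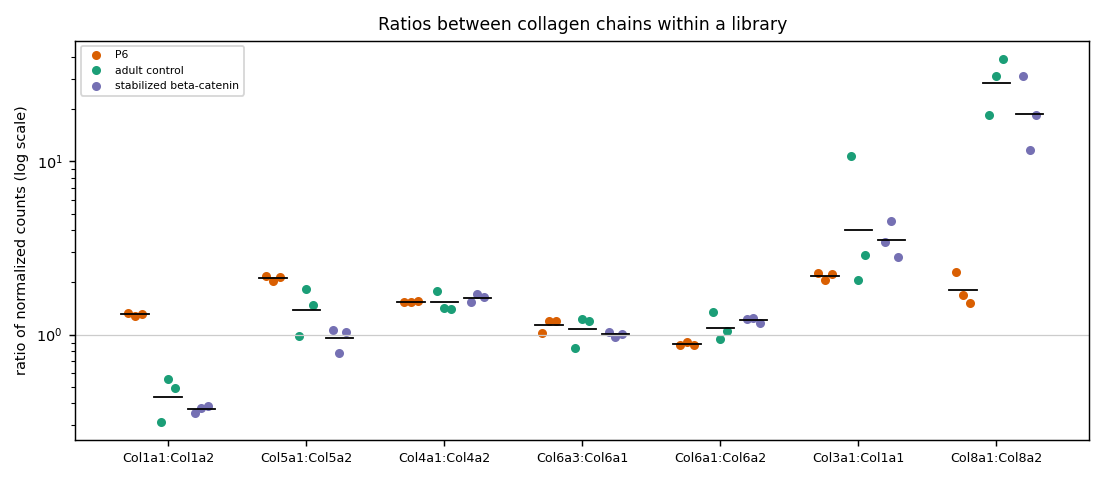
Ratios of normalized counts between 2 chains of the same library (log scale); points are libraries and bars geometric means. Col1a1:Col1a2 lies at 1.28 to 1.34 at P6 and below 1 in the adults, Col8a1:Col8a2 is higher in the adults, and Col4a1:Col4a2 overlaps throughout.

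The multiplexins, basement membrane collagens whose cleaved ends include endostatin, were both higher at P6. Col18a1 measured 2157, 2272 and 2033 at P6, 196, 206 and 208 in adult control and 136, 181 and 178 with stabilized beta-catenin. The P6 libraries were close together and far above the rest. At P6 it was higher by 3.40 on the log2 scale (SE 0.11, adjusted p = 3.69e-07). Col15a1, found in the capillaries and muscle of the heart, measured 5051, 5072 and 4432 at P6, 952, 1677 and 1401 in adult control and 708, 1221 and 1250.3 with stabilized beta-catenin (1.89, SE 0.20, adjusted p = 6.23e-05). Every adult library was below every P6 library.

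The remaining chains were rare. Col26a1 measured 162 to 181 at P6 and 2.16 to 5.83 in adult control, and Col7a1, the anchoring fibril chain of skin, 36.1 to 53.5 and 3.33 to 13.1. The transmembrane chains Col25a1 and Col13a1 were higher at P6, with log2 fold changes of 1.32 and 0.85. Col13a1 missed the threshold with DESeq2, with all 3 groups in the fit and without P6 library 1 or 3. Col20a1, Col23a1 and Col28a1 were not called. Col2a1, Col6a4, Col6a5, Col9a1, Col9a3, Col10a1, Col17a1 and Col19a1 were not tested, and Col6a4, Col10a1 and Col17a1 had at most 2.89 normalized counts in every library.

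Genes that fold, process, bind and degrade collagen were called in both directions at P6, and the counts of each list stand beside 31.2% of all genes tested higher and 31.3% lower. Of 20 hydroxylation and folding genes tested, 8 were higher and 5 lower, with a median log2 fold change of -0.03 (0.02 over all genes). P4ha3, a prolyl hydroxylase subunit, and Fkbp10, a collagen chaperone, were higher by 5.59 and 2.03 on the log2 scale, whereas the other subunits P4ha1 and P4ha2 were lower by -1.51 and -1.21. Of 18 genes of procollagen processing and cross-linking, 12 were higher and 2 lower (median 1.32). They included Adamts14, which trims procollagen (3.91), the cross-linking oxidases Lox (2.90) and Loxl2 (2.94), and Fmod, a proteoglycan that binds fibrils (4.32). Of 14 basement membrane partners tested, 11 were higher and 2 lower (median 1.40), among them Pxdn, which cross-links type IV collagen (2.69), and Nid2, which links it to laminin (2.36). Of 9 collagen receptors tested, 5 were higher and 2 lower (median 0.65), with the integrin subunits Itga2 at 3.10 and Itga11 at -1.50. Of 10 degradation genes tested, 4 were higher and 4 lower (median 0.52), with the membrane collagenase Mmp14 at 3.42 and the inhibitor Timp4 at -3.43. Of the genes called in these lists, P4ha3, Fmod, Itga2, Itga10 and Timp1 met the filter only through P6. Lair1, Mmp3 and Mmp13 met it only through adult control. For P4ha3, Fmod, Mmp3 and Mmp13 the other group stayed under 10 in every library, so their direction follows from the filter.

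Markers of cell types also differed between P6 and adult control, and their part in the collagen values was not tested. The counts below again stand beside 31.2% of all genes higher and 31.3% lower. The summed level of 12 fibroblast markers was 11817 to 13884 normalized counts at P6 and 31816 to 38030 in adult control. Gsn alone held 2227 to 2687 of this sum at P6 and 18657 to 23324 in adult control. Of the 12 markers 3 were higher, 6 lower, and the list's median was -0.48. The called markers with the largest change were Gsn (-3.03), Dpep1 (-2.50), Scara5 (-1.88) and Tcf21 (1.66). Pdgfra, a fibroblast receptor named after its values were seen, was not called (0.04). It measured 1178 to 1227 at P6 and 941 to 1321 in adult control. The 10 activated fibroblast markers summed to 17811 to 23014 and 2969.7 to 4022. Acta2, also a mural marker, held 4460 to 6130 of this sum at P6 and 1922 to 2861 in adult control. Postn held 11061 to 14332 and 633 to 1236. Of the 10 markers 8 were higher and 1 lower (median 1.72), led by Cthrc1 (5.59) and Tnc (4.35). Cthrc1 met the filter only through P6, so its direction follows from the filter. The 13 endothelial markers summed to 28166 to 33153 and 15763 to 24502, with 9 higher and none lower (median 0.59). The 9 epicardial markers summed to 1287 to 1531 and 227 to 303, with 8 of 8 tested higher (median 3.09). Of these, Krt8, Krt19, Lrrn4 and Msln met the filter only through P6, so their direction follows from the filter. Upk3b reached 10 normalized counts in all P6 libraries but not in all adult control ones. The 12 mural markers, 5 higher and 4 lower, had a median of 0.33. The 12 cardiomyocyte markers, none higher and 8 lower, had a median of -0.85. The 11 macrophage markers, 1 higher and 10 lower, had a median of -1.75. Of 4 glial markers tested, 3 were lower, of which Gfra3 and Sox10 met the filter only through adult control. The 7 lung markers summed to at most 26.0 in any library. None of the defining markers of the first 7 of these lists was at 0 in a group.

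The second comparison, stabilized beta-catenin with adult control, asks what the altered beta-catenin in cardiomyocytes does to the adult ventricle. Of 31 chains tested, 0 were higher and 0 lower by limma, beside 1.49% and 0.308% of all 12971 genes (1.8% in either direction). At an unadjusted p under 0.05 there were 7 chains, 22.6% of those tested, beside 12.8% of all genes tested. Of the other tools, edgeR called 0 (1.55% of all genes higher and 0.409% lower), and DESeq2 called 1 higher and 1 lower (2.61% and 1.36% of all genes). The median log2 fold change was -0.06 over the chains and -0.00 over all genes. Col13a1, Col20a1 and Col25a1 met the filter only through adult control.

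The chains of the main fibers and sheets had changes near 0 with wide intervals. The log2 fold change was -0.08 for Col1a1 (95% interval -0.76 to 0.59), -0.27 for Col3a1 (-1.15 to 0.60) and -0.21 for Col4a1 (-0.73 to 0.31). A change of the size seen at P6 lay outside each of these intervals. Col18a1 had -0.31 (-0.67 to 0.05, adjusted p = 0.489) and was not called. All its stabilized beta-catenin libraries lay below all adult control libraries, and the share of all genes with such a separation was not counted.

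Col5a3, which measured 68.2 to 83.9 with stabilized beta-catenin against 130.3 to 304 in adult control, had a log2 fold change of -1.27 (SE 0.30, 95% interval -1.95 to -0.60, adjusted p = 0.0872). DESeq2 called it (-1.37, adjusted p = 0.00137), as did limma with all 3 groups in the fit (adjusted p = 0.0212) and without adult control library 1 (-0.92, adjusted p = 0.0352). The groups did not overlap. Col25a1 had -1.41 (SE 0.35, adjusted p = 0.113) and was called with all 3 groups in the fit (adjusted p = 0.0242). It met the filter only through adult control and measured 4.28 to 7.11 with stabilized beta-catenin, so its direction follows from the filter. Col8a2 had 1.30 (SE 0.54, adjusted p = 0.367) and was called by DESeq2 (1.68, adjusted p = 0.0399). Its groups overlapped, as stabilized beta-catenin library 1 measured 22.1.

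Of the 6 type VI chains 4 were tested, with Col6a1 at -0.34, Col6a2 at -0.49 (adjusted p = 0.267), Col6a3 at -0.44 (adjusted p = 0.325) and Col6a6 at -1.06 (adjusted p = 0.543). None of them passed the test. Col8a1 had 0.74 (95% interval -0.09 to 1.57, adjusted p = 0.458) and Col4a5 0.32 (adjusted p = 0.336). Col23a1, a transmembrane chain, had 0.77 (adjusted p = 0.245). Col6a5, a type VI chain below the filter, had 66 reads with stabilized beta-catenin and 1 in adult control, a ratio of 61.3 (95% counting interval 10.6 to 2456), and stabilized beta-catenin library 3 alone measured 35.0 normalized counts against at most 4.28 in the other libraries of its group.

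The collagen-related lists had 19 folding, 18 processing, 9 receptor, 10 degradation and 14 basement membrane partner genes tested. Of these, Fkbp10 and Fmod were the genes called, beside 1.8% of all genes tested in either direction. Fkbp10 measured 151, 195 and 146 normalized counts with stabilized beta-catenin and 350.0, 283 and 290.2 in adult control, a log2 fold change of -0.91 (SE 0.17, adjusted p = 0.0364). Fmod measured 24.1, 65.0 and 39.1 against 9.17, 7.08 and 9.36, a log2 fold change of 2.10 (SE 0.38, adjusted p = 0.0356). The groups did not overlap for Fkbp10 or Fmod. Fmod met the filter only through stabilized beta-catenin, so its direction and its lack of overlap follow from the filter. No gene of the cell type lists was called. The activated fibroblast markers summed to 3446, 9080 and 6092 with stabilized beta-catenin, the highest in library 2. Acta2, also a mural marker, held 2172, 2290 and 3757 of these sums, and Postn 752, 3863 and 1270. Library 2 was also highest of its group for Col12a1, Col8a1, Col8a2 and Col14a1, and for abundant chains such as Col1a1, Col3a1 and Col4a1. All 44 chains summed to 19108, 33177 and 25320 normalized counts in these libraries. The part of the markers in the collagen values was not tested. Of the 10 markers, 8 were highest of the group in library 2, 2 in library 3 and 0 in library 1.

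The third comparison sets stabilized beta-catenin against P6. It shares its libraries with the comparisons above, so its values are given side by side and not as separate evidence. Of 36 chains tested 27 were lower and 3 higher than at P6, beside 35.8% and 36.5% of all 13367 genes (72.3% in either direction), with a median of -2.27 (0.00 over all genes). Of the lower chains 6 met the filter only through P6, and Col22a1 met it only through stabilized beta-catenin, so their direction follows from the filter. Col1a1 was lower by -4.21 on the log2 scale (SE 0.17, adjusted p = 6.17e-08), Col4a1 by -2.31 (SE 0.19, adjusted p = 3.27e-06) and Col18a1 by -3.71 (SE 0.12, adjusted p = 2.52e-08). Col8a1 was higher by 3.01 (SE 0.27, adjusted p = 4.52e-06), Col4a3 by 0.71 (SE 0.24, adjusted p = 0.0214) and Col22a1 by 2.30, the last no longer tested without any 1 of the stabilized beta-catenin libraries. Col4a3 overlapped P6 and lost its call without stabilized beta-catenin library 2 or 3, without P6 library 3, with all 3 groups in the fit and with total-count scaling. Without stabilized beta-catenin library 2 or 3 the number of higher chains was 1, and without P6 library 2 or 3 it was 3 and 2.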

How the data were processed

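RNA-seq values of 9 ventricle libraries were used. The authors deposited 1 table of normalized counts (a signal: gene counts divided by a size factor per library), and per-gene raw counts of the P6 libraries, counted with htseq-count per the file headers. Bowtie2 2.0, DESeq2 and mm9 are named in the submitters' processing notes. The annotation and strand setting are not given in the sources used here. Without strand, reads of a chain gene and of an overlapping antisense gene cannot be told apart. Whole reads were recovered from the normalized counts (100% of values whole within 0.001), and matched the deposited P6 counts by name for 24364 genes.

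The collagen chain genes, gene lists (15) and tests were chosen with earlier results of these data known. Values per library are given for a set list of chains, for chains called with stabilized beta-catenin and for chains lower at P6. Up to 4 called genes with the largest change may be named per list. Further ones are named where they met the filter through a single group or held much of a list's sum. Log2(normalized count + 1) was tested with limma 3.58.1 with an intensity trend, between the 2 groups compared, for genes that reached 10 normalized counts in 3 or more of their libraries, with Benjamini-Hochberg adjustment over all genes. Fold changes are on that scale and understate low genes. Chain ratios were tested with a two-sided exact permutation test. Alternatives were edgeR 4.0.16 and DESeq2 1.42.0 on whole reads, other pseudocounts, filters and scalings, 3 groups in 1 fit, the replicate number as a block, and each library left out. Intervals on read ratios and floors of 3 reads cover counting error only. Levels per kilobase use exon lengths of GENCODE vM21 (GRCm38), not the files' build. RefSeq promoters are of GRCm38.p6. Fits were tested on simulated data.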

Additional observations from a re-analysis of the deposited data

How the results depend on the processing

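For P6 against adult control, the number of higher chains stayed within 1.5 times of 29 under every alternative run. The number of lower chains was 1 with a filter of 50 normalized counts and 1 to 2 with a library left out, with Col22a1 no longer tested. With total-count scaling Col4a3 went to 0.23 and Col4a4 to 0.25 at P6 against adult control, and Col4a4 to -0.063 with stabilized beta-catenin against P6. That scaling moved the median of all genes to 0.45 and -0.41 in these comparisons. For stabilized beta-catenin against adult control, DESeq2 called 1 higher and 1 lower chain, the fit of all 3 groups 2 lower, and leaving out a library 0 to 1 lower; the cause was not tested. Against P6, 1 to 4 chains were higher with a library left out.

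Changes near 0 crossed it when a library was left out. For stabilized beta-catenin against adult control the ranges were -0.42 to 0.10 for Col1a1, -0.61 to 0.10 for Col3a1, -0.43 to 0.028 for Col4a1, -0.059 to 0.45 for Col4a4, -0.32 to 0.10 for Col4a6, -0.032 to 0.42 for Col5a2 and -0.32 to 0.51 for Col14a1. For P6 against adult control Col4a3 ranged from -0.47 to 0.052, and for stabilized beta-catenin against P6 Col8a2 ranged from -0.97 to 0.28.

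With the replicate number as a block, 29 chains were higher and 2 lower at P6, 0 were called with stabilized beta-catenin against adult control, and 3 were higher and 27 lower against P6. Same-numbered libraries had correlated deviations of -0.12 to 0.196, so the numbers were not taken as pairs. Chains with a few reads per library could not be resolved at this depth.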
